A study of Mus musculus with 4 samples.

Results

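The 10 genes described here, Padi4, Fblim1, Pdpn, Ncmap, Id3, Pink1, Zfp984, Skint3, Tnfrsf9 and Tnfrsf14, lie on mouse chromosome 4 and were taken from the 31053 genes of the count matrices. They had been selected on measured values, the genotype ratios of UMI levels: the chosen genes differed between Angptl4-/- and Angptl4+/+ wounds at least 2-fold, in one direction on both days, in neutrophils or in monocytes and macrophages. Their genotype ratios in those classes are therefore given as a description and are support for nothing. With a minimum of 100 UMIs over the 4 libraries in a class, 9 of the 10 met that rule in the processing used here. Tnfrsf9 did not. It was past 2-fold on both days in neutrophil-like cells (log2 ratios of -2.01 and -1.33), but had too few UMIs there for that minimum. Clusters of neutrophil-like, monocyte-like and macrophage-like cells are parts of the sums that made the choice, and the day ratios of those classes use the same 4 levels, so both are description as well. The same holds for likeness of level to other genes, which includes these levels. Dendritic cell-like and NK cell- and T cell-like values were not used in the choice, although they come from the same 4 libraries.

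Single-cell RNA-seq had been run on live CD45+ leukocytes sorted from 3 mm punch wounds made in dorsal skin. Wounds of wild-type (Angptl4+/+) and knockout (Angptl4-/-) animals were taken 1 day or 5 days after wounding (1 and 5 dpw), as 1 library for each genotype and day. Angptl4-/- mice lack angiopoietin-like 4, a secreted protein that inhibits lipoprotein lipase. The label of all 4 libraries gives C57BL6/J as the strain, and the study's methods describe 8-week-old males, with the wild-type animals bought from a vendor and the Angptl4-/- animals taken from a public repository of mutant lines. The number of mice behind each library is not given in the sources used here, the deletion and the source of the animals cannot be told apart, and with 1 library for each genotype and day no test between genotypes was made.

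Several of these genes have known roles in leukocytes. PADI4 converts arginine to citrulline in histones and is needed for neutrophils to release chromatin traps, ID3 binds E proteins and keeps them from DNA, and PINK1 is the kinase that marks damaged mitochondria for removal. Tnfrsf9 and Tnfrsf14 encode the TNF receptor superfamily members 4-1BB, a costimulatory receptor induced on activated lymphocytes and myeloid cells, and HVEM, the receptor of LIGHT and BTLA. Podoplanin, from Pdpn, is a mucin-type glycoprotein that binds CLEC-2 and is induced on inflammatory macrophages, and migfilin, from Fblim1, links filamin and kindlin at sites of cell adhesion.

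By the GENCODE annotation of GRCm38, the build to which the authors aligned, all 10 are protein-coding genes of chromosome 4 and span 112.2 to 154.9 Mb of a chromosome whose last annotated gene ends at 156.4 Mb. Without Skint3, the other 9 span 19.56 Mb near the distal end. In order along the chromosome they are Skint3 (chr4:112232245-112300468, plus strand), Ncmap (chr4:135369576-135398227, minus), Id3 (chr4:136143497-136145755, plus), Pink1 (chr4:138313409-138326307, minus), Padi4 (chr4:140745865-140774236, minus), Fblim1 (chr4:141576062-141606096, minus), Pdpn (chr4:143267431-143299564, minus), Zfp984 (chr4:147753974-147809788, minus), Tnfrsf9 (chr4:150914562-150946102, plus) and Tnfrsf14 (chr4:154921933-154928563, minus). Zfp984 overlaps Gm20707 on the same strand, and 54.2% of the 50-base words in the last 1000 bases of its transcripts also occur in transcripts of 26 other genes, so its counts are uncertain. For Tnfrsf14 that share was 4.3%, and for the other 8 genes it was 0. Tnfrsf9 overlaps Camta1 and Ncmap overlaps Gm12991, each on the opposite strand.

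The promoters of 4 genes are shown because, in the classes of the rule, their genotype ratios were the largest (Ncmap, Id3 and Fblim1) or at 1 dpw differed in sign between classes (Padi4). Each is the RefSeq sequence of GRCm38.p6 over the 250 bases before the start that RefSeq annotates, 5′ to 3′ on the strand of the gene. The letters TATAAA and GGGCGG, read on either strand, are in capitals. RefSeq starts differ in places from the GENCODE bounds given above. The Id3 window lies inside those bounds, and the Padi4 and Fblim1 windows overlap them in part.
Ncmap (chr4:135398228-135398477, minus strand): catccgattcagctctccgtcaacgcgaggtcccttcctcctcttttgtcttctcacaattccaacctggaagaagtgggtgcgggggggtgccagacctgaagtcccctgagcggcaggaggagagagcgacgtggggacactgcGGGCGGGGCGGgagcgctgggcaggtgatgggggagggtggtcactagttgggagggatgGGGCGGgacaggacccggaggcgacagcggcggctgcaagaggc
Id3 (chr4:136143572-136143821, plus strand): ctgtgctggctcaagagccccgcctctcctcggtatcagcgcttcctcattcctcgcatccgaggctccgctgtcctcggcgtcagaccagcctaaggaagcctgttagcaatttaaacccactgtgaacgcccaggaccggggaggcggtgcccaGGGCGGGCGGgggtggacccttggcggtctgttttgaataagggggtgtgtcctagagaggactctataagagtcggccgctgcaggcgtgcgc
Padi4 (chr4:140774204-140774453, minus strand): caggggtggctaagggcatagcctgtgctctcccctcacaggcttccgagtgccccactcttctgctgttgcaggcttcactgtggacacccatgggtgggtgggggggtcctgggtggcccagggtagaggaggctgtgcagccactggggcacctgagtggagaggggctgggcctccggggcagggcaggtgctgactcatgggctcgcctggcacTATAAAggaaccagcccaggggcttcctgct
Fblim1 (chr4:141606053-141606302, minus strand): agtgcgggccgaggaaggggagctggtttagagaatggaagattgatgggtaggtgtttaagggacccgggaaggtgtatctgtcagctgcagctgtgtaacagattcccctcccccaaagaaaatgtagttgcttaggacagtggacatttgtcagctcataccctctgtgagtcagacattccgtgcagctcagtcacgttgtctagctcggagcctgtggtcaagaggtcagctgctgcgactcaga
The Ncmap window holds GGGCGG 3 times and the Id3 window 2 times, in both with overlapping copies. TATAAA is in the Padi4 window once, and neither word is in the Fblim1 window shown. RefSeq has another promoter for Ncmap, with neither word, and another for Fblim1, with GGGCGG 2 times. Of the 13 RefSeq promoters of the 10 genes, 6 hold GGGCGG and 1 holds TATAAA, beside 32.7% and 12.4% of all 32851 mouse promoters. A match of letters is a description only, and the window of Fblim1 says nothing of other factors.

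The libraries held 4772 to 5419 barcodes and 26981596 to 32962595 UMIs, and 19827 of 20069 barcodes passed the filters, with a median of 3735.5 to 4975.5 UMIs per cell. Cells were clustered without any gene of chromosome 4. Of 13 clusters, 7 were named neutrophil-like (2704 to 3892 cells a library), 2 macrophage-like and 1 monocyte-like (together 781 to 1686 cells), 1 dendritic cell-like (86 to 308), 1 NK cell- and T cell-like (NK/T-like, 35 to 226) and 1 B cell-like. The B cell-like class had 2 to 27 cells a library, too few for a comparison of these genes. Between libraries, 50 barcode sequences were shared. Markers of other cells moved with genotype in places. The 2 erythroid markers summed to 11473 UMIs (933 CPM) in neutrophil-like cells of Angptl4-/- at 5 dpw and to 5 to 17 UMIs in the other libraries, the 3 mast cell markers to 133 CPM against 0 to 2.54, and the basophil marker Mcpt8 stood at 29.7 in monocyte/macrophage-like cells of Angptl4+/+ at 5 dpw against 0 to 0.131. At 1 dpw these lists were at 0 to 1.51 CPM in both classes, and their part in the 5 dpw values was not tested. Angptl4 itself had 47 and 78 UMIs in the Angptl4+/+ libraries and 0 in both Angptl4-/- libraries. Levels are in CPM (counts-per-million), the UMIs of a gene as a share of all UMIs of its class and library, and each log2 ratio is Angptl4-/- over Angptl4+/+, with its 95% interval in parentheses. The intervals cover counting error only, not variation between mice.

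Of the 10 genes, 7 were measured in neutrophil-like cells, with at least 100 UMIs over the 4 libraries. At least 2-fold on both days, 2 of the 7 were higher in Angptl4-/- wounds (Id3 and Ncmap) and 4 were lower (Pdpn, Pink1, Zfp984 and Skint3), where 0.547% of all 7859 measured genes were past that limit, 0.331% higher and 0.216% lower. Monocyte/macrophage-like cells had 9 of the 10 measured. Tnfrsf14 was higher and Padi4, Fblim1, Zfp984 and Skint3 were lower, where 0.367% of all 9818 measured genes were past the limit, 0.183% in each direction. Since these contrasts chose the genes, nothing is read from those counts. The lists of related genes named below are short. With such low shares over all genes, nothing is read from a list with no other gene past the limit. In dendritic cell-like cells, which the rule did not use, 1 of 4 measured genes, Zfp984, was past the limit (0.314% of all 7319 measured genes), and in NK/T-like cells 0 of 2 were (0.377% of 6097). The median log2 ratio of the 4 genes measured in dendritic cell-like cells was -0.64 at 1 dpw and -0.11 at 5 dpw, beside 0.0027 and 0.0038 over all measured genes. The 4 ratios had both signs on each day. They ran from -1.69 (Tnfrsf9) to 0.70 (Id3) at 1 dpw and from -1.10 (Zfp984) to 1.13 (Id3) at 5 dpw, so nothing is read from the medians.

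**Figure D1:**
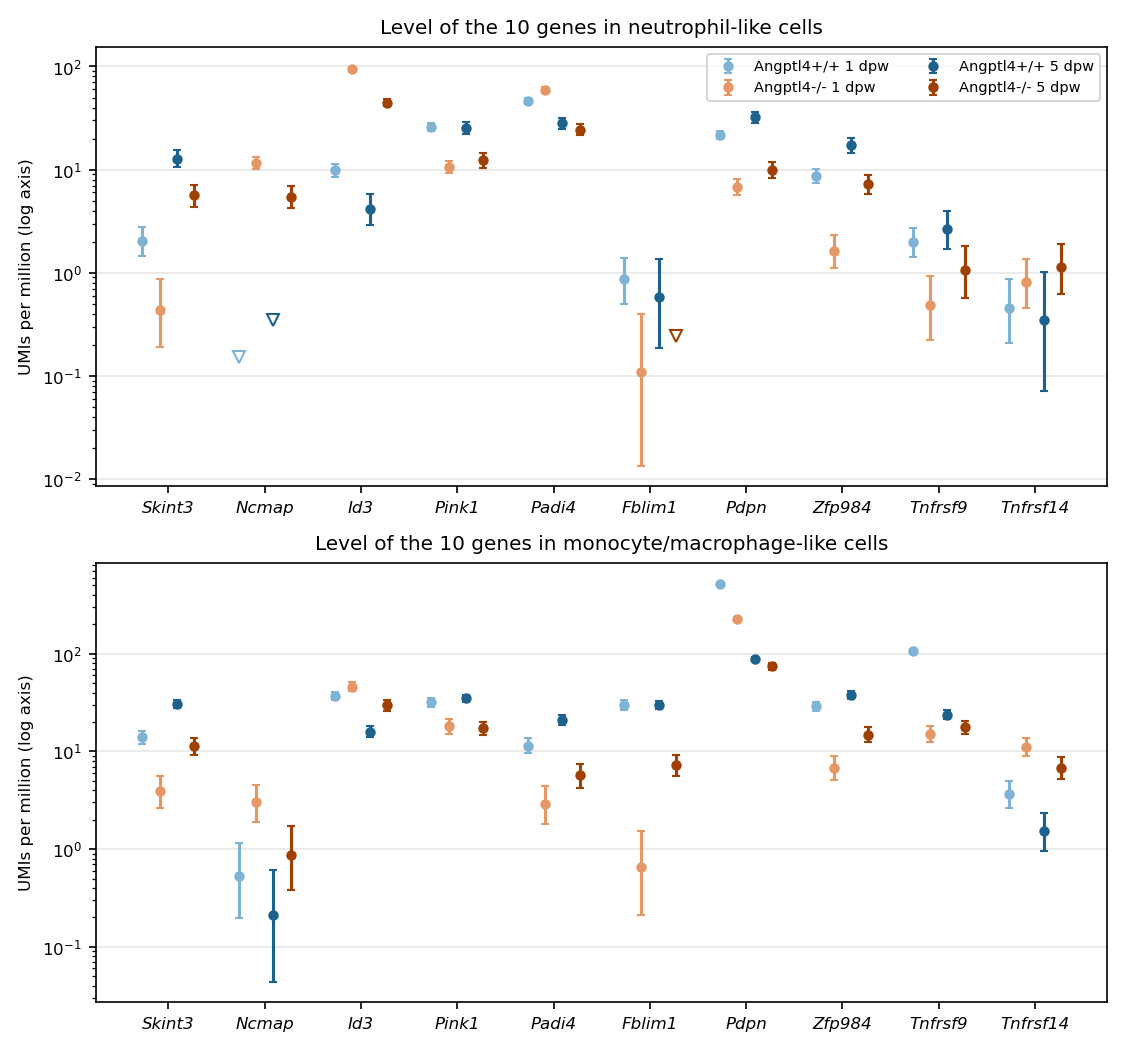
CPM on a log axis for the 10 genes in neutrophil-like (top) and monocyte/macrophage-like cells (bottom), 1 point per library, with bars for the exact Poisson 95% interval and open triangles at the 3-UMI limit where a library had 0 UMIs. Id3 in neutrophil-like cells stood at 94.4 and 44.7 in Angptl4-/- against 9.90 and 4.15 in Angptl4+/+, and Fblim1 in monocyte/macrophage-like cells at 0.656 and 7.21 against 29.8 and 30.1.

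Of the 10 genes, Id3 had the highest ratio in neutrophil-like cells after Ncmap. At 1 dpw it stood at 9.90 CPM in Angptl4+/+ and 94.4 in Angptl4-/- wounds, and at 5 dpw at 4.15 and 44.7. The ratios were 3.25 (3.04 to 3.47) and 3.43 (2.94 to 3.96) on the log2 scale, 9.53-fold and 10.8-fold, and did not differ between days beyond counting error (0.18, -0.35 to 0.71). All 7 neutrophil-like clusters, whose UMIs add up to the class value, had more Id3 in Angptl4-/- wounds on both days, by 2.71 to 4.20 at 1 dpw and 2.55 to 4.68 at 5 dpw, where the value of 1 cluster was a bound. The share of neutrophil-like cells with an Id3 UMI was 2.13% against 15.4% at 1 dpw and 0.814% against 6.42% at 5 dpw. With each cell thinned to 1000 UMIs the shares were 0.830% against 6.34% and 0.386% against 2.84%.

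Outside neutrophils the Id3 ratio was smaller. Monocyte/macrophage-like cells had Id3 at 36.9 and 45.9 CPM at 1 dpw and at 15.9 and 29.5 at 5 dpw, log2 ratios of 0.32 (0.11 to 0.53) and 0.89 (0.63 to 1.15). Of those cells, the monocyte-like cluster had 87.8 and 80.1 at 1 dpw and 38.6 and 75.5 at 5 dpw, so the genotypes differed beyond counting error there at 5 dpw (0.97, 0.46 to 1.49) and not at 1 dpw (-0.13, -0.45 to 0.19). Dendritic cell-like levels were 38.4 and 62.2 at 1 dpw and 10.3 and 22.7 at 5 dpw, ratios of 0.70 (0.19 to 1.21) and 1.13 (0.56 to 1.72). The 5 dpw value there rested on few cells, of which 1 held 26 of the 68 UMIs, and it was 0.03 with clusters at resolution 1.0. NK/T-like cells had 2 and 10 UMIs at 1 dpw, and 14.9 and 6.41 CPM at 5 dpw, a ratio of -1.22 (-2.20 to -0.31). Among the genes of the Id and E protein list, 5 were measured in neutrophil-like cells, and Id1, Id2, Tcf3 and Tcf4 were not past the limit.

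Ncmap encodes a membrane protein of non-compact myelin, known from Schwann cells. In neutrophil-like cells it had 0 UMIs in both Angptl4+/+ libraries, of 19701444 and 8679348 UMIs in all, and 213 and 67 UMIs, or 11.6 and 5.45 CPM, in the Angptl4-/- libraries at 1 and 5 dpw. Against a limit of 3 UMIs per library the Angptl4-/- level was at least 76.3-fold higher at 1 dpw and at least 15.8-fold higher at 5 dpw. A UMI was present in 161 of 3701 Angptl4-/- neutrophil-like cells at 1 dpw (4.35%) and 57 of 3507 at 5 dpw (1.63%), with at most 6 UMIs in a cell. Thinned to 1000 UMIs per cell the shares were 1.44% and 0.556%. Dendritic cell-like cells, which were deeper (medians of 12825.5 to 13950 UMIs, against 3219.5 to 4682.5 in neutrophil-like cells), had 0 Ncmap UMIs in all 4 libraries.

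The gene was not at 0 throughout the Angptl4+/+ libraries. NK/T-like cells had 6 and 27 Ncmap UMIs there at 1 and 5 dpw (22.2 and 11.5 CPM), and 1 and 15 UMIs in Angptl4-/- wounds (3.46 and 6.41 CPM). The ratios of -2.68 (-8.20 to 0.37) and -0.84 (-1.86 to 0.12) did not exceed counting error, so the gene was detected in these cells in both genotypes and in neutrophil-like cells in Angptl4-/- wounds alone. Among monocyte/macrophage-like cells the UMIs were 6 and 3 in Angptl4+/+ against 23 and 8 in Angptl4-/- wounds, and none was in the monocyte-like cluster. Those Angptl4-/- levels were 26.0% and 16.0% of the level in neutrophil-like cells of the same library, where 11 neutrophil markers reached 3.88 to 9.99% and 2.31 to 4.30%.

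Tnfrsf14 was low in every class. Monocyte/macrophage-like cells had 41 UMIs in Angptl4+/+ and 85 in Angptl4-/- at 1 dpw (3.65 and 11.2 CPM), and 22 and 62 at 5 dpw (1.54 and 6.77 CPM). The log2 ratios were 1.61 (1.06 to 2.19) and 2.14 (1.42 to 2.91). Monocyte-like and macrophage-like cells had similar ratios, with intervals that overlapped, of 1.49 and 1.63 at 1 dpw. In NK/T-like cells the UMIs were 0 and 0 at 1 dpw and 3 and 14 at 5 dpw, a ratio of 2.23 (0.39 to 4.67). Dendritic cell-like cells had 5 and 10 UMIs at 1 dpw and 12 and 9 at 5 dpw, with intervals that included 0.

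**Figure D2:**
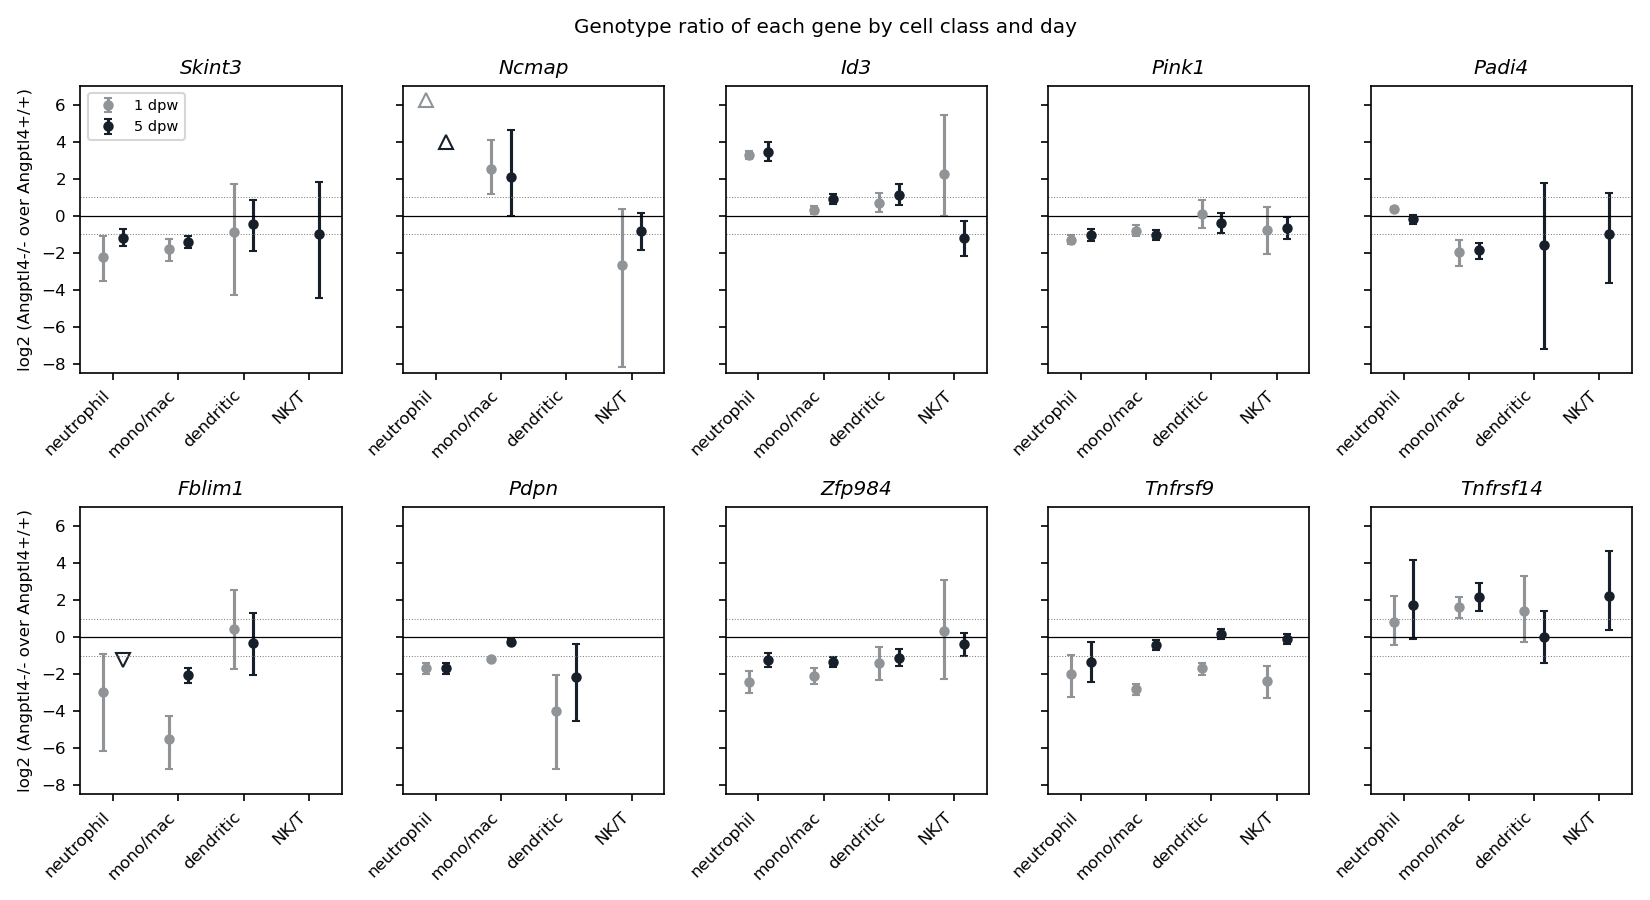
Log2 ratio of Angptl4-/- over Angptl4+/+ for each of the 10 genes by cell class, grey for 1 dpw and black for 5 dpw, with exact 95% counting intervals as bars, open triangles for bounds and dotted lines at 2-fold. Tnfrsf9 lay at -2.82, -1.69 and -2.40 at 1 dpw in monocyte/macrophage-like, dendritic cell-like and NK/T-like cells and at -0.42, 0.17 and -0.08 at 5 dpw.

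By UMI level, Tnfrsf9 differed between genotypes at 1 dpw and much less at 5 dpw, in each of the 3 classes where it was measured. Its monocyte/macrophage-like level was 107 CPM in Angptl4+/+ against 15.1 CPM in Angptl4-/- wounds at 1 dpw, and 23.7 and 17.7 at 5 dpw. The dendritic cell-like levels were 269 and 83.2 at 1 dpw and 60.3 and 68.0 at 5 dpw. In NK/T-like cells they were 273 and 51.9 at 1 dpw, from 74 and 15 UMIs, and 104 and 97.9 at 5 dpw. The Angptl4+/+ library of 1 dpw was thus the highest of the 4 in each of these classes.

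The Tnfrsf9 log2 ratios at 1 dpw were -2.82 (-3.11 to -2.54), -1.69 (-2.03 to -1.38) and -2.40 (-3.30 to -1.58) in that order of classes. At 5 dpw they were -0.42 (-0.70 to -0.15), 0.17 (-0.10 to 0.45) and -0.08 (-0.35 to 0.19). The difference between the days was 2.40 (2.01 to 2.78), 1.87 (1.45 to 2.28) and 2.32 (1.47 to 3.16), beyond counting error in all 3 classes, although the libraries are the same in each and the differences are not independent. Counting error takes each UMI as a separate draw, but in NK/T-like cells at 1 dpw 1 Angptl4+/+ cell held 30 of the 74 UMIs. By cells, a UMI was present there in 14 of 35 (40.0%, 23.9 to 57.9) in Angptl4+/+ wounds. In Angptl4-/- wounds it was present in 7 of 36 (19.4%, 8.19 to 36.0), and these intervals overlapped. From 1 to 5 dpw Tnfrsf9 was lower by 2.17, 2.16 and 1.40 on the log2 scale in Angptl4+/+ wounds. In Angptl4-/- wounds its day ratio was 0.23 (-0.12 to 0.59), -0.29 (-0.64 to 0.07) and 0.91 (0.16 to 1.78).

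Both macrophage-like clusters had less Tnfrsf9 in Angptl4-/- wounds at 1 dpw. The cluster led by Arg1 held 1077 and 88 UMIs at 1 dpw (196 and 29.3 CPM) and 322 and 155 at 5 dpw (41.6 and 37.5 CPM), ratios of -2.74 and -0.15 (-0.44 to 0.13). The cluster led by Ccl12 and the C1q genes held 115 and 27 UMIs at 1 dpw and 16 and 3 at 5 dpw, ratios of -1.77 and -1.86 (-4.28 to -0.06). At 5 dpw the intervals of the clusters overlapped. Monocyte-like cells had 0 to 5 UMIs in a library. Without integration of the libraries the monocyte/macrophage-like ratio at 5 dpw was -1.15, past 2-fold, so that Tnfrsf9 met the rule in that class under that setting. Of monocyte/macrophage-like cells, a Tnfrsf9 UMI was present in 23.0% and 4.21% at 1 dpw and in 5.10% and 4.23% at 5 dpw. After thinning to 1000 UMIs these shares were 9.66%, 1.87%, 2.32% and 0.907%. The intervals of the 5 dpw shares overlapped between genotypes, both before thinning (4.10 to 6.26 and 2.93 to 5.88) and after it (1.65 to 3.17 and 0.365 to 1.86). At 5 dpw 1 cell held 29 of the 340 Angptl4+/+ UMIs and 1 cell held 30 of the 162 Angptl4-/- UMIs. Of dendritic cell-like cells, a Tnfrsf9 UMI was present in 57.8% and 30.2% at 1 dpw and in 28.6% and 23.7% at 5 dpw, and in 15.6%, 11.6%, 5.20% and 8.21% after thinning to 1000 UMIs. In neutrophil-like cells, where the gene was low, the share was 0.694% and 0.135% at 1 dpw and 0.629% and 0.285% at 5 dpw. Neutrophil-like cells had 84 Tnfrsf9 UMIs in all, too few for the gene to be measured there. The ratios there were -2.01 (-3.24 to -0.94) at 1 dpw, from 39 and 9 UMIs, and -1.33 (-2.43 to -0.28) at 5 dpw, from 23 and 13. Both were past 2-fold. Of the other TNF receptor genes of distal chromosome 4, Tnfrsf1b, Tnfrsf4, Tnfrsf8, Tnfrsf18 and Tnfrsf25 were measured in at least 1 class and were past the limit in none, nor were the ligand and adaptor genes Tnfsf9, Tnfsf14, Btla, Traf1, Traf2 and Traf3 in monocyte/macrophage-like cells.

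Fblim1 was found mostly in macrophage-like cells and was far lower in Angptl4-/- wounds. In monocyte/macrophage-like cells it had 335 UMIs in Angptl4+/+ and 5 in Angptl4-/- at 1 dpw, or 29.8 and 0.656 CPM, and 432 and 66 at 5 dpw, or 30.1 and 7.21 CPM. The ratios were -5.51 (-7.14 to -4.27), a 45.4-fold lower level, and -2.06 (-2.46 to -1.69), 4.18-fold lower. All of these UMIs were in the macrophage-like clusters, and the monocyte-like cluster had 0 in each library. In the Arg1-led cluster the UMIs were 255 and 3 at 1 dpw and 327 and 43 at 5 dpw, and in the Ccl12-led cluster 80 and 2 and then 105 and 23, so the gene was lower in both clusters on both days.

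The level of Fblim1 did not change with day in Angptl4+/+ monocyte/macrophage-like cells beyond counting error (0.02, -0.19 to 0.23). In Angptl4-/- cells the log2 ratio of 5 to 1 dpw was 3.46 (2.16 to 5.13), beside a median change of 0.06 over all measured genes. A UMI was present in 17.9% and 18.2% of Angptl4+/+ cells at 1 and 5 dpw and in 0.308% and 5.76% of Angptl4-/- cells, against 0.334%, 0.185%, 0.0540% and 0% of neutrophil-like cells. After thinning to 1000 UMIs the 4 shares were 3.54%, 3.97%, 0% and 0.777%. Dendritic cell-like cells had 5 to 10 UMIs a library, and their ratios of 0.42 (-1.70 to 2.54) and -0.30 (-2.04 to 1.30) did not exceed counting error. Of the genes of migfilin partners, Fermt3, Flna, Vasp and Ilk were measured in monocyte/macrophage-like cells and were not past the limit.

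Pdpn had its highest level in monocyte/macrophage-like cells at 1 dpw, 516 CPM in Angptl4+/+ and 224 in Angptl4-/- wounds, and stood at 88.3 and 74.3 at 5 dpw. The ratios were -1.20 (-1.28 to -1.12) and -0.25 (-0.39 to -0.11), and they differed by 0.95 (0.80 to 1.11) between the days. These intervals take each UMI as a separate draw, but 1 cell held 41 of the 680 Angptl4-/- UMIs at 5 dpw. By cells, a Pdpn UMI was present in 59.5% and 37.0% at 1 dpw. The shares at 5 dpw were 19.3% (17.5 to 21.3) and 17.5% (14.9 to 20.4), and these intervals overlapped. From 1 to 5 dpw the level was 5.84-fold lower in Angptl4+/+ and 3.02-fold lower in Angptl4-/- cells. The intervals of the macrophage-like clusters did not overlap on either day. In the Arg1-led cluster, Pdpn stood at 860 and 486 at 1 dpw and at 139 and 156 at 5 dpw, ratios of -0.82 (-0.91 to -0.74) and 0.16 (0.02 to 0.30), whereas in the Ccl12-led cluster it stood at 301 and 88.1 and then at 34.2 and 9.58, ratios of -1.77 (-1.98 to -1.57) and -1.83 (-2.40 to -1.31).

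In neutrophil-like cells Pdpn was lower in Angptl4-/- wounds on both days by about the same ratio. It stood at 21.7 and 6.76 CPM at 1 dpw and at 32.3 and 10.0 at 5 dpw, ratios of -1.68 (-1.98 to -1.39) and -1.69 (-2.01 to -1.38). At 1 dpw 7 of 7 clusters were lower and at 5 dpw 6 of 7. The neutrophil-like level was 4.21% and 3.02% of the monocyte/macrophage-like level of the same library at 1 dpw, and 36.5% and 13.5% at 5 dpw. For 12 macrophage markers the percentage was taken of the macrophage-like level, a base unlike that of Pdpn. Their medians were 0.639% and 0.467% at 1 dpw and 1.37% and 1.17% at 5 dpw. Their maxima were 146% and 228% and then 338% and 410%. At least 1 marker was thus higher in neutrophil-like than in macrophage-like cells of each library, so a place inside that range says little. The part that macrophage RNA had in the neutrophil-like values was not tested. Dendritic cell-like cells had 43 and 2 UMIs at 1 dpw and 18 and 3 at 5 dpw, with 14 in 1 cell on each day of Angptl4+/+. The ratios there, -4.01 (-7.10 to -2.07) and -2.15 (-4.55 to -0.37), were past 2-fold on both days, but from too few UMIs for Pdpn to be measured. The 5 dpw ratio turned to 0.03 without the 5% of cells with the most UMIs. Fibroblast markers were at 0.178 to 8.20 CPM, summed over 6 genes, in monocyte/macrophage-like cells. None of the 6 measured podoplanin partners (Ezr, Msn, Rdx, Cd44, Cd9 and Lgals8) was past the limit in any class.

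**Figure D3:**
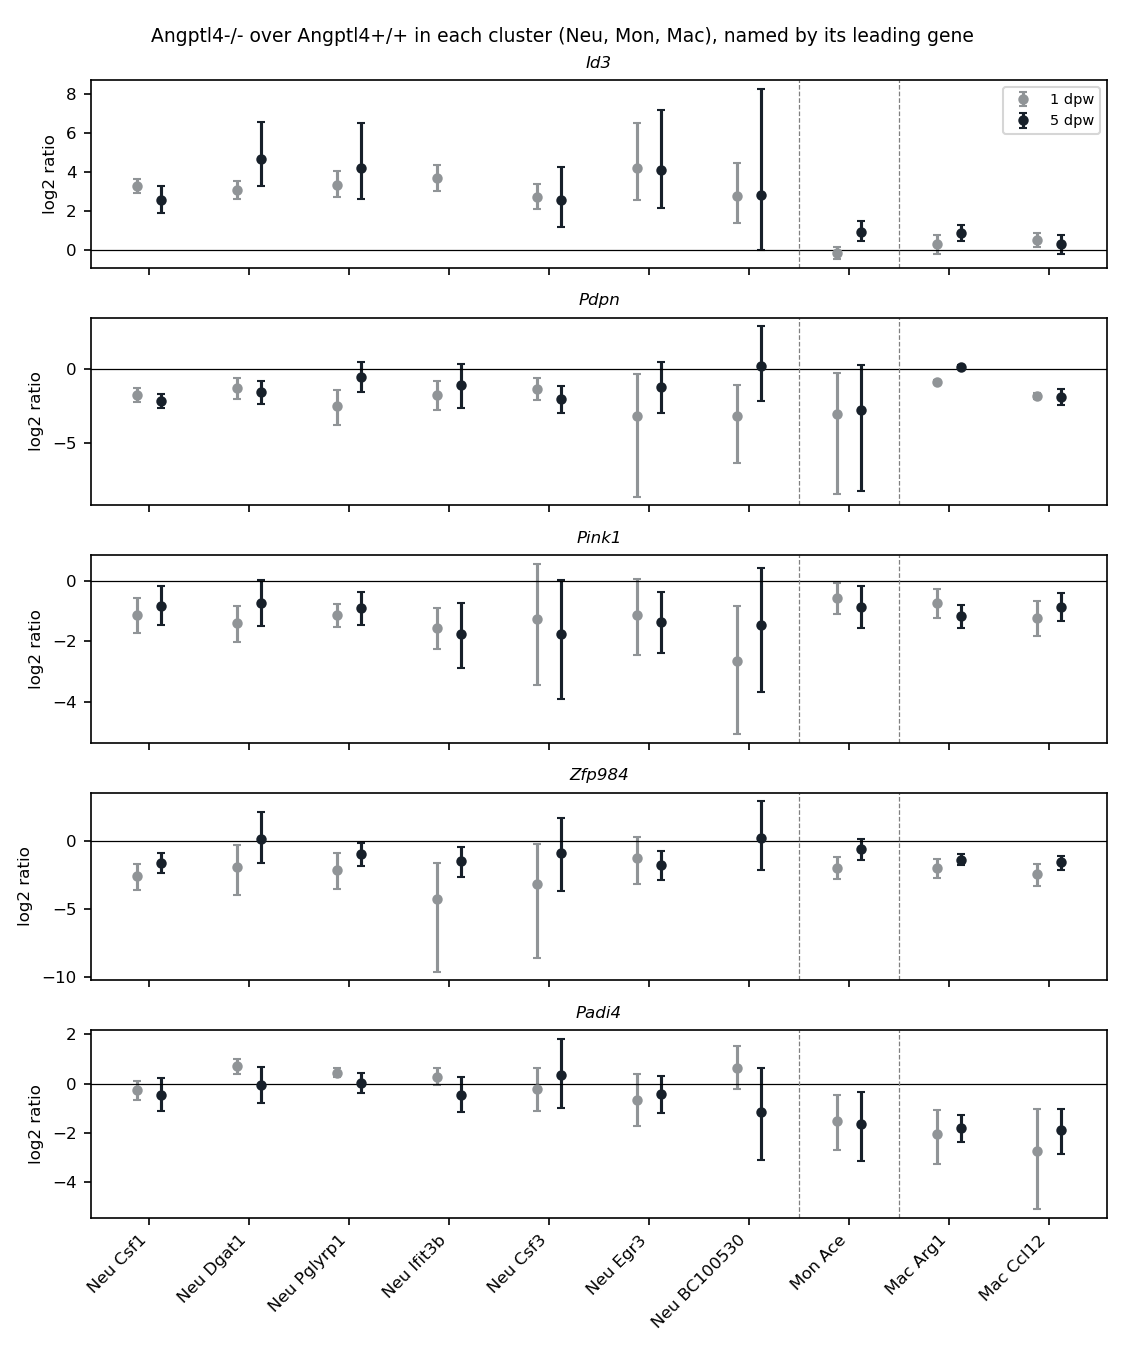
Log2 ratio of Angptl4-/- over Angptl4+/+ by cluster for Id3, Pdpn, Pink1, Zfp984 and Padi4, with exact 95% counting intervals as bars, grey for 1 dpw and black for 5 dpw, and clusters named by their leading gene (Neu, Mon and Mac for neutrophil-, monocyte- and macrophage-like) and no point where a ratio was a bound or could not be formed. Id3 lay above 0 in every neutrophil-like cluster with a point, and the Ifit3b-led cluster has none at 5 dpw, where its ratio was a bound. Pdpn at 5 dpw lay at 0.16 in the Arg1-led and at -1.83 in the Ccl12-led macrophage-like cluster.

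Padi4 had ratios of opposite sign in the classes of the rule at 1 dpw and not at 5 dpw. In neutrophil-like cells it stood at 46.0 CPM in Angptl4+/+ against 59.2 in Angptl4-/- wounds at 1 dpw and at 28.0 and 24.5 at 5 dpw, ratios of 0.36 (0.23 to 0.49) and -0.19 (-0.44 to 0.06). Its monocyte/macrophage-like level, by contrast, stood at 11.5 and 2.89 at 1 dpw and at 20.9 and 5.68 at 5 dpw, ratios of -1.99 (-2.71 to -1.33) and -1.88 (-2.34 to -1.45). The lower level was present in monocyte-like cells (15.7 and 5.53 at 1 dpw, 16.1 and 5.13 at 5 dpw) and in both macrophage-like clusters on both days. By clusters of neutrophil-like cells, 4 of 7 were higher at 1 dpw and 2 of 7 at 5 dpw. The monocyte/macrophage-like level was 24.9% and 74.8% of the neutrophil-like level in Angptl4+/+ at 1 and 5 dpw, above the range of the 11 neutrophil markers (4.32 to 10.8% and 1.71 to 4.13%). In Angptl4-/- it was 4.88% at 1 dpw, inside their range of 3.88 to 9.99%, and 23.2% at 5 dpw, above their range of 2.31 to 4.30%. The part that neutrophil RNA had in these values was not tested. Of the other peptidylarginine deiminases, Padi2 alone was measured, and it was not past the limit.

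Pink1 was lower in Angptl4-/- wounds in neutrophil-like and in monocyte/macrophage-like cells on both days, and past the limit in the former alone. In neutrophil-like cells it stood at 26.1 and 10.6 CPM at 1 dpw and at 25.6 and 12.4 at 5 dpw, ratios of -1.30 (-1.54 to -1.06) and -1.05 (-1.36 to -0.74). The direction was the same in 7 of 7 neutrophil-like and 2 of 2 macrophage-like clusters on both days. The monocyte/macrophage-like level stood at 31.9 and 18.1 at 1 dpw and at 35.0 and 17.2 at 5 dpw, ratios of -0.81 (-1.11 to -0.53) and -1.03 (-1.30 to -0.77). Neither class showed a difference between the days beyond counting error.

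In the classes the rule did not use, Pink1 was lower in NK/T-like cells, at 59.1 and 34.6 CPM at 1 dpw and 27.7 and 17.5 at 5 dpw, and the ratio of -0.66 (-1.26 to -0.07) at 5 dpw exceeded counting error while that of -0.77 (-2.07 to 0.46) at 1 dpw did not. In dendritic cell-like cells it stood at 22.0 and 23.5 at 1 dpw and at 20.7 and 15.7 at 5 dpw, with ratios of 0.10 (-0.68 to 0.85) and -0.40 (-0.95 to 0.13). Of the 13 genes of PINK1 and Parkin mitophagy measured in neutrophil-like cells, Pink1, which this limit chose, was alone past it, where 0.547% of all measured genes were. The median ratio of the list was -0.22 at 1 dpw and -0.10 at 5 dpw, beside -0.10 and -0.08 over all measured genes.

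Zfp984, which encodes a zinc finger protein of a repeated gene family, was lower in Angptl4-/- wounds in 3 classes. The levels were 8.73 and 1.64 CPM at 1 dpw and 17.2 and 7.24 at 5 dpw in neutrophil-like cells, and 29.0 and 6.83 and then 37.7 and 14.9 in monocyte/macrophage-like cells. In dendritic cell-like cells they were 32.7 and 12.6 at 1 dpw and 38.7 and 18.0 at 5 dpw. The ratios there were -1.38 (-2.31 to -0.52) and -1.10 (-1.58 to -0.65), and this was the gene past 2-fold on both days in a class that the rule did not use. In neutrophil-like cells the ratio was nearer 0 at 5 than at 1 dpw by 1.17 (0.49 to 1.84) and in monocyte/macrophage-like cells by 0.74 (0.24 to 1.24). NK/T-like cells had 21.3 and 16.2 at 5 dpw, a ratio of -0.39 (-1.04 to 0.25). The overlapping gene Gm20707 lay just outside the limit in both classes of the rule (-2.11 and -0.96 in neutrophil-like and -1.79 and -0.91 in monocyte/macrophage-like cells), as did the related Zfp991 in monocyte/macrophage-like cells (-1.93 and -0.85). Gm20707 overlaps Zfp984 on the same strand, and transcripts of Zfp984 share words with those of other genes. The values of these genes therefore cannot be taken as separate observations.

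Skint3 belongs to a butyrophilin-like family whose founding member selects epidermal T cells in the thymus. In neutrophil-like cells it stood at 2.03 and 0.436 CPM at 1 dpw and at 12.8 and 5.61 at 5 dpw, and in monocyte/macrophage-like cells at 14.0 and 3.94 and then at 30.3 and 11.4. The genotype ratios were -2.22 and -1.19 in the former and -1.83 and -1.41 in the latter. Skint3 was higher at 5 than at 1 dpw in both genotypes. The day ratio in neutrophil-like cells was 2.66 in Angptl4+/+ and 3.68 in Angptl4-/-, or 1.94 and 2.94 relative to the median of all genes. It was 1.12 (0.85 to 1.39) and 1.53 (0.93 to 2.17) in monocyte/macrophage-like cells. Monocyte-like cells had the highest levels, 42.1 and 10.5 at 1 dpw and 54.7 and 35.2 at 5 dpw, and the other 10 genes of the Skint family were not measured in any class.

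In neutrophil-like cells the scale differed between the days. The median gene was 0.72 higher in Angptl4+/+ and 0.74 higher in Angptl4-/- at 5 than at 1 dpw on the log2 scale. Each day is 1 library per genotype, so day and library cannot be told apart. Day ratios were read relative to that median. So read, Id3 was lower at 5 dpw by 1.97 and 1.82, Padi4 by 1.44 and 2.02, and Ncmap by 1.83 in Angptl4-/- wounds. Pdpn, at -0.15 and -0.18, stayed near the median gene. In monocyte/macrophage-like cells the median shifts were 0.11 and 0.06, and Id3 was lower at 5 dpw by 1.21 and 0.64 without adjustment.

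**Figure D4:**
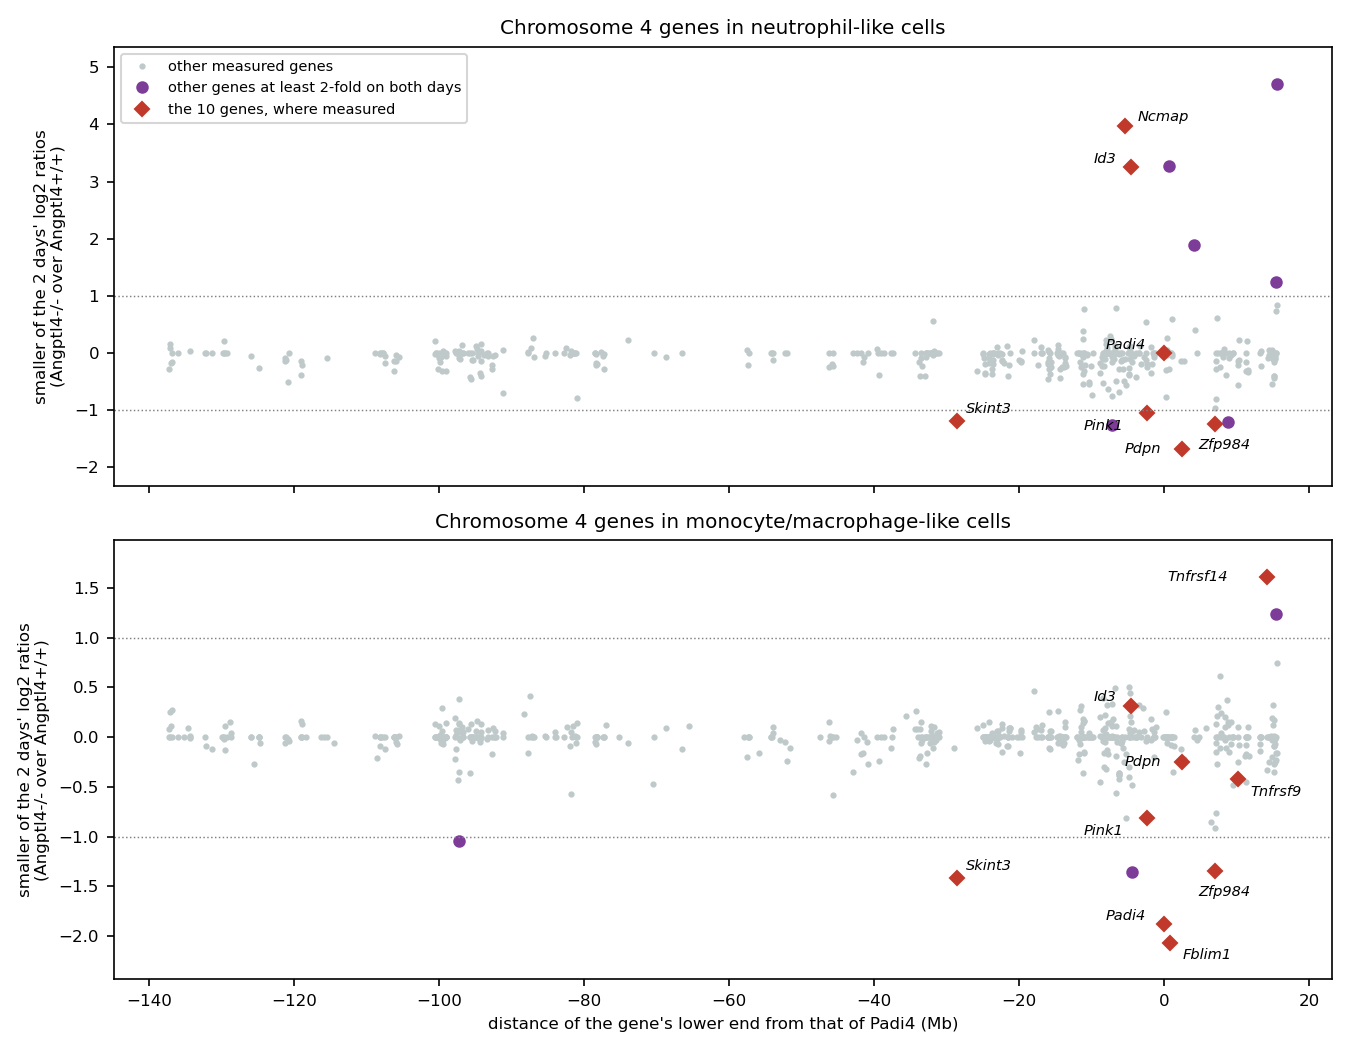
Each point is a measured gene of chromosome 4, placed by the distance of its lower end from that of Padi4 in Mb (horizontal) and by the smaller of its log2 ratios of the 2 days where both have one sign, and 0 otherwise (vertical), in neutrophil-like (top) and monocyte/macrophage-like cells (bottom), with the 10 genes as red diamonds where measured, other genes past 2-fold on both days in purple and dotted lines at 2-fold. Without the 10 genes, which this limit chose, genes past 2-fold in neutrophil-like cells numbered 6 of 173 beyond 130 Mb and 0 of 266 before it. That border was not fixed beforehand, so the split is a description only.

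The 10 genes were chosen on chromosome 4 by the 2-fold limit, so shares of chromosome 4 that include them restate the choice. Shares without them have lost genes past the limit on chromosome 4 alone, so its rank among chromosomes cannot be read either way. With them, 12 of 446 measured chromosome 4 genes (2.69%) were past the limit in neutrophil-like cells and 8 of 603 (1.33%) in monocyte/macrophage-like cells, and 0 of 19 other chromosomes were above it in each class. Leaving them out, 6 of 439 (1.37%) remained in neutrophil-like cells, against 31 of 7391 genes of the other chromosomes (0.419%), where 2 of 19 single chromosomes were above chromosome 4 and the highest stood at 2.05%. In monocyte/macrophage-like cells 3 of 594 (0.505%) remained, against 0.305% elsewhere, and 6 of 19 chromosomes were above it, up to 1.26%. By position, the remaining genes numbered 6 of 173 (3.47%) from 130 Mb to the end and 0 of 266 before it in neutrophil-like cells, and 2 of 215 (0.93%) and 1 of 379 (0.264%) in monocyte/macrophage-like cells. The 130 Mb border was not fixed beforehand and lies below 9 of the 10 genes, so the split is a description only. In classes that the rule did not use, the share on chromosome 4 was 0.45% against 0.306% in dendritic cell-like and 0% against 0.402% in NK/T-like cells. The dendritic cell-like share was 2 of 444 genes, 1 of them Zfp984, and 5 of 19 other chromosomes were above it. With 1 gene left outside the 10, no excess is read from it.

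In all, 17 measured chromosome 4 genes met the rule in the processing used here, 9 of the 10 described and 8 others, of which 7 lie beyond 130 Mb. Among those higher in Angptl4-/- neutrophil-like cells were Samd11 (4.71 and 6.36 on the log2 scale at 1 and 5 dpw) and Dhrs3 (3.11 and 1.89). Isg15, an interferon-induced ubiquitin-like protein, was higher in both classes (1.58 and 1.24 in neutrophil-like, 1.23 and 1.26 in monocyte/macrophage-like cells). Sfn and Ctnnbip1 were lower in neutrophil-like cells and Tcea3 and Car9 in monocyte/macrophage-like cells. At the limit itself, the members just inside were Pink1 (-1.30 and -1.05) and Skint3 in neutrophil-like cells and Zfp984 and Skint3 in monocyte/macrophage-like cells, and Noc2l (1.36 and 0.84) and Miip (-1.47 and -0.80) were just outside in neutrophil-like cells. The nearest measured gene on each side of each of the 10 was past the limit in 0 of 20 cases. Over all measured genes the share was 0.547% in neutrophil-like and 0.367% in monocyte/macrophage-like cells, so nothing is read from that count. The starts of member and neighbour lay 2.76 to 2730 kb apart. The neighbours were read in the class of the rule where the member had more UMIs, which for Padi4, Pdpn, Pink1 and Tnfrsf9 was one where the member itself was not past the limit. Those neighbours had median sizes of 0.19 and 0.20 at 1 and 5 dpw, and the neighbours of Zfp984, Zfp991 and Gm20707, were the farthest from 0.

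**Figure D5:**
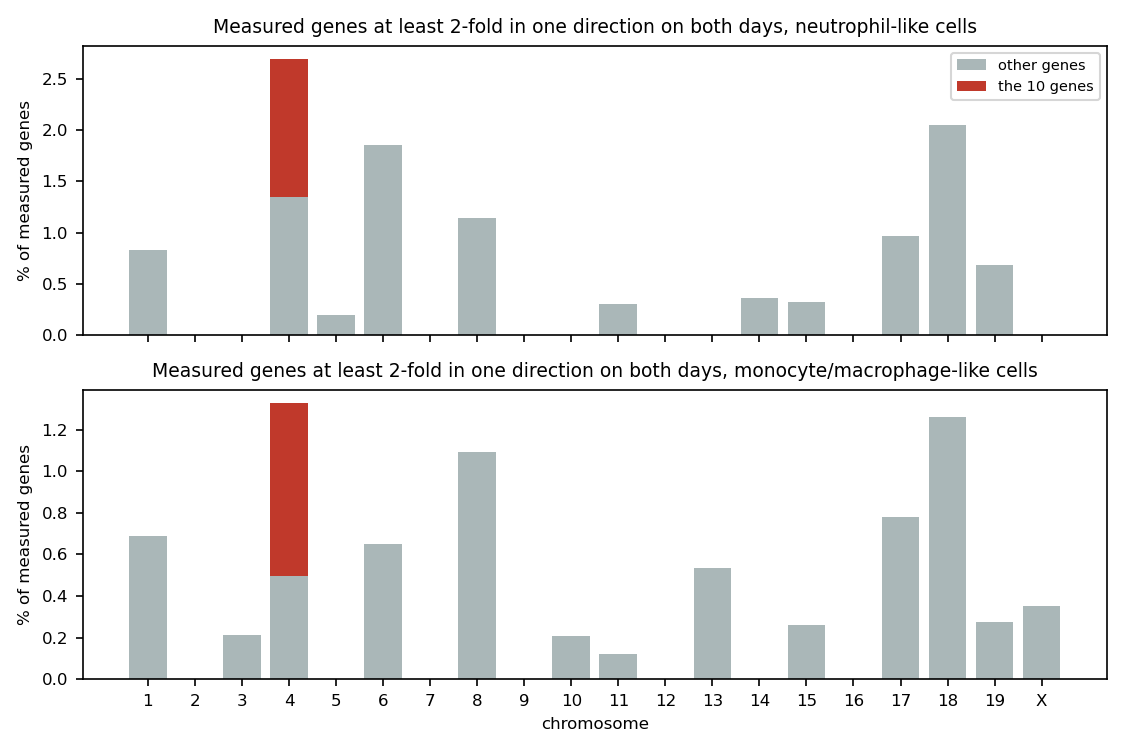
Percentage of measured genes at least 2-fold apart in one direction on both days, by chromosome, in neutrophil-like (top) and monocyte/macrophage-like cells (bottom), with the share of the 10 genes, which this limit chose, in red. With them chromosome 4 stood at 2.69% and 1.33%, and without them, in count and in denominator, at 1.37% and 0.505%. The highest of the other chromosomes stood at 2.05% and 1.26%. Leaving the 10 genes out takes genes past the limit from chromosome 4 alone, so its rank cannot be read either way.

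By likeness of level, measured as Pearson's r of log2(CPM + 1) over 12 points (neutrophil-like, monocyte/macrophage-like and dendritic cell-like cells of the 4 libraries, which share libraries and depth), Isg15 was among the genes most like Ncmap (r = 0.81), and Id3 was nearest to Samd11 (0.85), both genes of chromosome 4. Zfp984 was nearest to Hdac1 (0.95), also of chromosome 4. Pdpn was nearest to Gm47507 (chromosome 13) and to Ak4 of chromosome 4 (0.96 each), and Fblim1 to Cmtr2 (0.87) and to Car6 of chromosome 4 (0.86). The genes nearest to Padi4 (Fmnl3, 0.95), Skint3 (Ubald1, 0.91), Tnfrsf9 (Lin37, 0.98) and Tnfrsf14 (Enpp4, 0.92) lay on other chromosomes. Pink1 was nearest to Angptl4 itself (0.80), whose level was 0 in the Angptl4-/- libraries.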

How the data were processed

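The deposited files, 1 matrix per library, hold raw UMI counts per gene and cell that the authors made from 10x Genomics 3' libraries with Cell Ranger 3.1.0 on mm10, and the submitters' notes also list Seurat 3.0. Those counts were used as deposited. Barcodes with at least 200 genes and at most 10% mitochondrial UMIs were kept, integrated with Seurat 5.3.0 in R 4.3.3 (2000 variable genes, 30 dimensions, resolution 0.5) without 1727 genes, all those of chromosome 4 and those the study names, and clusters were named from marker lists. Doublets were kept, as the caller of scanpy 1.11.5 marked 6 of 19827 cells and so had not worked. UMIs were summed per class and library with Python 3.11.15 and scipy 1.17.1, scaled to counts-per-million (CPM), and given exact Poisson and exact conditional binomial 95% intervals. Differences between 2 log2 ratios have a normal interval on the log scale. A library at 0 UMIs was set to 3 UMIs for a bound, and no ratio was formed where both libraries had 3 or fewer. The interval code was checked on simulated counts.

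The members, lists and named genes were chosen with earlier results of these data known. Beside the 10 genes, the text names chromosome 4 genes that meet the rule, neighbours, genes of the related lists and the most alike genes. Some of them are not reported here. Alternatives covered scaling by edgeR's TMM factors, thinning to 1000 UMIs, the cell filter, clustering, doublets, minimum UMIs and the fold of a call.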

Additional observations from a re-analysis of the deposited data

Results flagged for a closer look

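The sign of the Padi4 genotype ratio differed between classes at 1 dpw, since the only Angptl4-/- library was above the only Angptl4+/+ library in neutrophil-like cells (log2 ratio of 0.36) and below it in monocyte/macrophage-like cells (-1.99). The difference was not tested, as each group is 1 library.

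The Id3 ratio at 5 dpw was 3.43 in neutrophil-like, 0.89 in monocyte/macrophage-like and 1.13 in dendritic cell-like cells, and -1.22 in NK cell- and T cell-like (NK/T-like) cells, from 35 and 15 UMIs in the last. It was flagged for the opposite sign of the last class. This difference between classes was likewise not tested.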

How the results depend on the processing

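Genotypes were compared within each day, and day was not used as a block in a fit. The labels give no replicate numbers, and no paired analysis was made. The number of the 10 genes past the limit was 6, 5, 1 and 0 in neutrophil-like, monocyte/macrophage-like, dendritic cell-like and NK/T-like cells. Thinned to 1000 UMIs, which leaves fewer UMIs per gene, monocyte/macrophage-like cells had 3 of them, 4 chromosome 4 genes and 0.184% of all genes past the limit, dendritic cell-like cells had 0 of them and 0% of all genes, and NK/T-like cells had 0.146% of all genes. In dendritic cell-like cells the number was 2 without integration, with at least 20 UMIs, with over 3 UMIs in a library of each day and at 1.5-fold, and in NK/T-like cells it was 1 at 1.5-fold. The share over all genes without integration is not given here, so nothing is read from the count under that setting. Over all genes the share in the order of classes was 1.58%, 0.961%, 1.05% and 0.836% with at least 20 UMIs, 2.01%, 1.28%, 1.39% and 1.05% with over 3 UMIs, and 2.09%, 1.13%, 1.56% and 1.53% at 1.5-fold. Chromosome 4 genes past the limit in neutrophil-like and monocyte/macrophage-like cells numbered 29 and 16 (4.63% and 2.25%) with at least 20 UMIs, 32 and 22 (4.89% and 3.02%) with over 3 UMIs, and 27 and 15 (6.05% and 2.49%) at 1.5-fold, by construction wider limits.

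Of the genotype ratios under the alternatives, 503 stayed within the counting interval of the reported value, 25 moved outside it, 20 of them with thinning, and 1 reversed. With thinning 29 stayed. Of the 503, 70 came from leaving out called doublets, too few cells to move a ratio. The reversed value was that of Pdpn in dendritic cell-like cells at 5 dpw, 0.032 without the 5% of cells with the most UMIs, an alternative chosen after seeing the data. The cause was not tested. With TMM factors 70 genotype ratios stayed within the counting interval, and of the day ratios 25 stayed and 13 moved, 12 of them in neutrophil-like cells. With 35 and 36 NK/T-like cells at 1 dpw, depth limits what can be seen there.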
